A study of Oryza sativa with 6 samples.

Results

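Ehd1 is a B-type response regulator of rice that switches on the florigen genes in leaves, and a set of zinc-finger, PHD-finger and MADS-box proteins is known to act above it. The 6 genes described here are RID1 (also Ehd2, LOC_Os10g28330), Ehd3 (LOC_Os08g01420), Ehd4 (LOC_Os03g02160), OsMADS50 (LOC_Os03g03070), OsMADS51 (LOC_Os01g69850) and OsMADS56 (LOC_Os10g39130), an antagonist of OsMADS50. They were chosen by locus number for their known role, with earlier results of these data known, out of 57839 loci in the count table. All 6 passed the filter on low counts, which left 23074 loci for testing.

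The series compared mature leaves of wild-type rice (WT, n = 3 libraries) with those of the mutant line osatg5-1 (n = 3 libraries). All plants stood in a paddy field under natural long days and were sampled at tillering, when side shoots form. ATG5 is a core protein of autophagy, and the series asked how autophagy bears on flowering time. The labels give neither the cultivar and the nature of the osatg5-1 allele, nor whether it was 1 line, nor whether replicates were separate plants. Every p-value here thus rests on variation among these libraries alone, and that variation could be technical.

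In the flowering network of rice, light and clock signals meet at Ehd1, which is raised by activators and held down by long-day repressors. Ehd1 then raises the florigen genes, whose proteins move from the leaf to the shoot tip. RID1, the rice counterpart of maize INDETERMINATE1, is a C2H2 zinc-finger protein without which rice hardly ever flowers. Ehd3 is a PHD-finger protein and Ehd4 a CCCH zinc-finger protein. OsMADS50 and OsMADS56 are both related to SOC1 of Arabidopsis and act in opposite senses in long days, OsMADS50 promoting flowering and OsMADS56 delaying it. OsMADS51 is a MADS-box protein known as a promoter of flowering in short days, below the clock gene OsGI.

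The libraries held 30927816 to 39351357 counts. The locus number listed here for the targeted gene, LOC_Os02g02570, which no annotation used here pairs with a name, was not lower in osatg5-1. Its level, in CPM (TMM-scaled counts relative to library depth), averaged 6.28 ± 0.540 for WT and 7.23 ± 0.291 for osatg5-1 (SD, n = 3 each), a log2 difference of 0.20 ± 0.13 (SE; adjusted p = 0.32, edgeR quasi-likelihood test). Every osatg5-1 library, at 6.91 to 7.48 CPM, lay above every WT library, at 5.78 to 6.85 CPM. The ranges were likewise apart at 35.4% of all tested loci. Reads over a locus need not show a lesion that leaves a transcript, so the genotype labels are neither checked nor contradicted by these values. A list of 7 mature leaf markers summed to 16291 to 17412 CPM in the WT libraries and 20869 to 21939 CPM in the osatg5-1 libraries, with 3 of its 6 tested loci higher, beside 8.23% of all tested loci. Most of the rise in this sum came from 1 locus, which went from 2785 to 6671 CPM on average. The 3 tested markers that did not pass had log2 differences from -0.49 to -0.11. Among those 3, the marker at -0.49 averaged only 1.62 CPM over the WT libraries and 1.15 over the mutant libraries. The untested marker had 7 counts in WT replicate 2, 64 in osatg5-1 replicate 1 and 0 elsewhere. Levels this low add almost nothing to the sum, which therefore rests on the remaining markers. A list of 2 root markers summed to 17.6 to 24.6 CPM in WT and 15.1 to 21.2 CPM in osatg5-1, with 1 at 0 counts throughout. A list of 3 meristem and inflorescence markers summed to 21.9 to 29.5 and 24.2 to 28.0 CPM, again with 1 at 0 counts. Another had 2 counts in 1 WT library and 0 elsewhere, so 1 locus made up nearly the whole sum. Of 3 leaf senescence markers 1 was lower in osatg5-1, beside 8.21% of all tested loci. The other 2 did not pass and went the other way, with log2 differences of 0.23 and 0.27. The list summed to 192 to 225 CPM in WT and 224 to 233 CPM in osatg5-1. What part these lists have in the levels below was not tested.

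None of the 6 genes differed between osatg5-1 and WT at the threshold used, an adjusted p under 0.05 over all tested loci. The test called 0 of the 6 higher and 0 lower, where it called 16.4% of all tested loci, 8.23% higher and 8.21% lower (edgeR quasi-likelihood test, n = 3 per genotype). At an unadjusted p under 0.05 the number was also 0, as it was with DESeq2 and limma-voom at the adjusted threshold. The CPM ranges of the genotypes overlapped for all 6 genes, and they were apart at 35.4% of tested loci. The median size of the log2 difference was 0.089 for the 6 genes and 0.20 for all tested loci, and the median signed difference was -0.08 against 0.0016. Nothing particular to the 6 genes is read from these counts, since 6 genes are too few to set against such shares. The same holds for the medians, since the spread of a log2 difference depends on abundance.

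The genes stood at very different levels in the leaf. On the FPKM scale, which divides by gene length, the mean level in WT rose from RID1 at 0.603 ± 0.0614 through Ehd3 at 2.87 ± 0.216 and Ehd4 at 17.4 ± 0.761 (SD, n = 3). OsMADS51 followed at 22.1 ± 1.34 FPKM, OsMADS50 at 23.8 ± 2.40 FPKM and OsMADS56 at 89.1 ± 3.00 FPKM. The highest level was 148 times the lowest in WT and 159 times in osatg5-1. OsMADS51 and OsMADS50 did not differ beyond their spread in WT, and they changed places in 1 library; the other neighbours in this order were apart in every library. The repressor OsMADS56 alone made up 57.2% ± 1.18 of the FPKM summed over the 6 genes in WT and 54.9% ± 2.91 in osatg5-1 (SD, n = 3 each). RID1 made up 0.387% ± 0.0404 and 0.344% ± 0.106. Each gene enters this sum only by the locus number given for it at the start. By mean FPKM over the 6 libraries, OsMADS56 ranked 863 among the 23074 tested loci and RID1 ranked 20133.

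**Figure D1:**
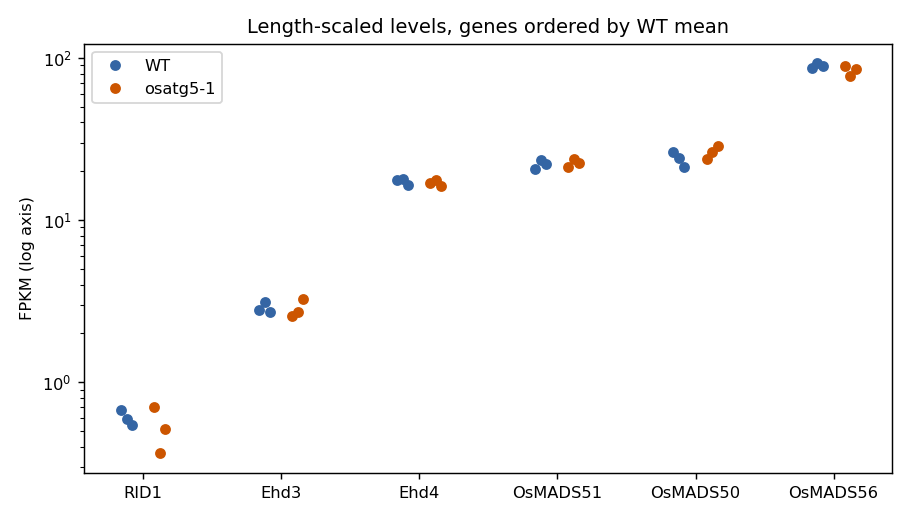
FPKM of the 6 genes in each library on a log axis, with 3 WT and 3 osatg5-1 points per gene and genes ordered by their WT mean. RID1 lies lowest, at 0.603 FPKM on average in WT, and OsMADS56 highest, at 89.1, and for each gene the points of the genotypes overlap.

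RID1, the zinc-finger gene at the head of the set, had the lowest level of the set in mature leaves. Its counts were 38, 33 and 30 in the WT libraries and 39, 24 and 36 in the osatg5-1 libraries. Scaled, these are 1.21, 1.06 and 0.991 CPM in WT and 1.23, 0.656 and 0.905 CPM in osatg5-1. The highest and the lowest of the 6 values both lay in osatg5-1, which spanned the whole WT range. The exact Poisson 95% interval of the lowest library, 0.421 to 0.977 CPM, overlapped that of the highest, 0.872 to 1.68 CPM; such intervals cover counting error only. The log2 difference was -0.23 ± 0.33 (SE; adjusted p = 0.69, edgeR), with a 95% interval from -0.96 to 0.50. At this depth the interval holds levels from 0.515 to 1.41 times that of WT. RID1 is the one gene of the 6 whose interval reaches beyond a 1.5-fold change.

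Ehd3, the PHD-finger gene, was measured at 246 to 390 counts per library. Its level was 8.73, 9.67 and 8.49 CPM in WT and 7.73, 8.20 and 9.80 CPM in osatg5-1. The mutant libraries again held both the lowest and the highest value. The log2 difference was -0.06 ± 0.13 (SE; adjusted p = 0.80, edgeR), with a 95% interval from -0.35 to 0.23.

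Ehd4, the CCCH zinc-finger gene, had the tightest replicates of the activators. Its level was 64.9, 66.0 and 61.4 CPM in WT and 60.5, 62.5 and 57.5 CPM in osatg5-1. The osatg5-1 values lay mostly below those of WT, but 1 mutant library exceeded the lowest WT library. The log2 difference was -0.09 ± 0.07 (SE; adjusted p = 0.41, edgeR), and its 95% interval runs from 15.3% lower to 4.18% higher than WT. The coefficient of variation was 3.75% in WT and 4.22% in osatg5-1, against 10.2% and 30.7% for RID1.

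**Figure D2:**
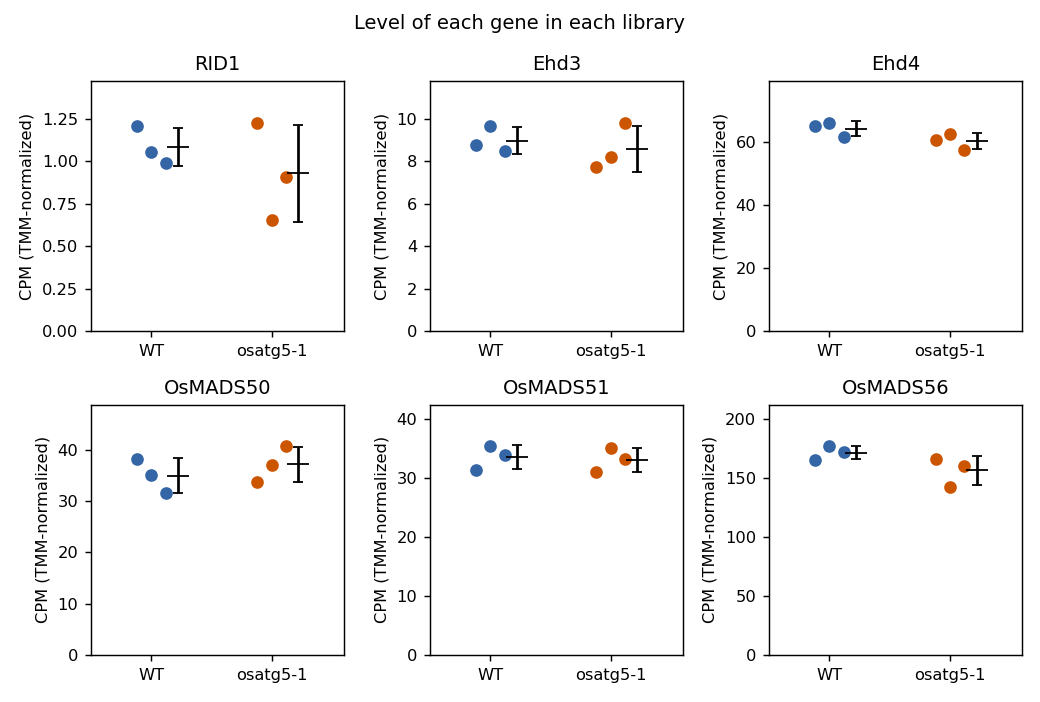
TMM-normalized CPM of each gene in each library (points, in replicate order), with the mean and SD of each genotype as a bar beside them; each panel starts at 0. The genotypes overlap in all 6 panels, and the osatg5-1 values of RID1 run from 0.656 to 1.23 CPM.

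OsMADS50, the SOC1-like promoter of flowering in long days, had a positive difference that did not pass the test. Its level was 38.3, 35.1 and 31.6 CPM in WT and 33.8, 37.1 and 40.7 CPM in osatg5-1. The ranges overlapped over most of their length. The log2 difference was 0.09 ± 0.10 (SE; adjusted p = 0.58, edgeR), with a 95% interval from -0.12 to 0.30, or from 8.21% lower to 23.2% higher than WT. A second model listed here for the same gene, LOC_Os03g03100, was at 16.6, 14.8 and 16.5 CPM in WT and at 16.5, 15.2 and 18.6 CPM in osatg5-1. It also did not pass the test, at a log2 difference of 0.07 ± 0.10 (SE; adjusted p = 0.68, edgeR). On the length-scaled measure this model stood at 17.6 ± 1.04 FPKM in WT, beside 23.8 ± 2.40 FPKM for LOC_Os03g03070.

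OsMADS51, the short-day promoter, stood at nearly the same level in both genotypes. Its measured level was 31.4, 35.3 and 33.8 CPM in WT and 31.0, 35.1 and 33.2 CPM in osatg5-1, and the ranges nearly coincided. The log2 difference was -0.02 ± 0.08 (SE; adjusted p = 0.91, edgeR), with a 95% interval from -0.20 to 0.16. Its sign turned with library-size scaling, with FPKM and without WT replicate 2 or osatg5-1 replicate 1, so no direction is given for it.

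OsMADS56, the SOC1-like repressor, had the smallest p-value of the 6. Its level was 166, 177 and 172 CPM in WT and 167, 143 and 160 CPM in osatg5-1. All but 1 mutant library lay below the WT range, and that library fell just inside it. The log2 difference was -0.13 ± 0.07 (SE; unadjusted p = 0.099, adjusted p = 0.26, edgeR quasi-likelihood test). The 95% interval runs from 18.6% lower to 2.11% higher than WT. Among the 984 tested loci within 1.5-fold of its mean CPM, 27.2% were called, and their median standard error was 0.0728, beside 0.0734 for OsMADS56. For RID1 the same share was 10.6% of 2228 loci.

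The balance of OsMADS50 to its antagonist was also compared directly within each library. OsMADS50 was taken at LOC_Os03g03070 alone, without the second model LOC_Os03g03100. The ratio of FPKM was 0.302, 0.26 and 0.241 in WT and 0.266, 0.341 and 0.333 in osatg5-1. The ratio was higher in 2 osatg5-1 libraries than in any WT library, while the remaining mutant library fell within the WT range. On the log2 scale the mean was -1.91 ± 0.17 in WT and -1.68 ± 0.20 in osatg5-1 (SD, n = 3 each), a difference of 0.22. This is larger than either SD, but the ranges overlapped and the test did not pass (exact permutation test, two-sided p = 0.2; the smallest that 3 against 3 allow is 0.1). RID1 was likewise set against the mean FPKM of Ehd3 and Ehd4. That mean rests mostly on Ehd4, at 17.4 FPKM in WT beside 2.87 for Ehd3. The ratio of RID1 to it had a log2 mean of -4.07 ± 0.12 in WT and -4.27 ± 0.51 in osatg5-1. Its difference was -0.20 (exact permutation test, two-sided p = 0.7, n = 3 each), and without osatg5-1 replicate 2, the library with the lowest RID1 level, it was 0.06. Both ratio tests were raw, 2 in number, and neither can pass 0.05 at this size.

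**Figure D3:**
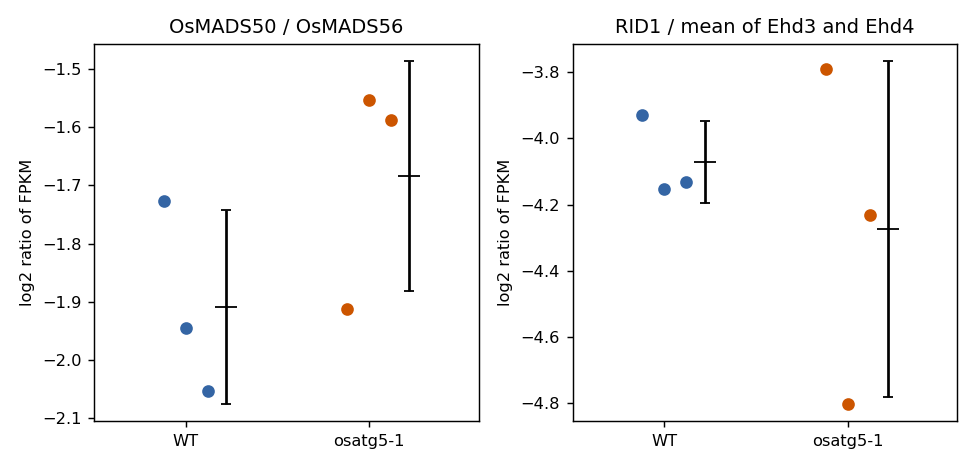
Log2 ratio of FPKM in each library for OsMADS50 to OsMADS56 (left) and RID1 to the mean of Ehd3 and Ehd4 (right), with mean and SD beside the points; the axes do not start at 0. The mean log2 ratio is -1.91 in WT and -1.68 in osatg5-1 on the left, and -4.07 and -4.27 on the right, and the genotypes overlap in both panels.

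Genes on either side of these 6 in the network were taken from 3 lists of 20 locus numbers. The files and the name table used here pair none of these numbers with a gene name, so individual loci are given by number alone. Among the 7 loci listed as partners or upstream genes of the set, such as clock and phytochrome genes, 0 rose and 0 fell, with log2 differences from -0.15 to 0.03. In the list of Ehd1, the florigens and their targets, 1 of the 5 tested loci rose, 3 fell and 1 did not pass, with a median log2 difference of -0.51. In the list of repressors 1 of 7 rose, 1 fell and 5 did not pass. These counts stand beside 8.23% of all tested loci called higher and 8.21% called lower. The 5 repressor loci that did not pass had log2 differences from -0.87 to 0.75. The 95% interval was -1.57 to -0.17 at the lowest (adjusted p = 0.090, edgeR) and -0.04 to 1.53 at the highest. Not passing thus does not show that these loci were unchanged.

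The locus that rose in the list of Ehd1, florigens and targets was LOC_Os10g32600, at 5.30, 5.28 and 4.76 CPM in WT and 7.67, 9.63 and 7.97 CPM in osatg5-1. Every mutant library exceeded every WT library, and the log2 fold change was 0.72 ± 0.14 (SE; adjusted p = 0.0063, edgeR). In the same list LOC_Os06g06320 fell from 82.2 ± 8.46 to 37.2 ± 0.877 CPM (SD, n = 3 each), a log2 fold change of -1.14 ± 0.08 (SE; adjusted p = 2.37e-05, edgeR). Among the repressors LOC_Os02g39710 rose from 12.3 ± 0.903 to 24.8 ± 4.97 CPM, a log2 fold change of 1.01 ± 0.14 (SE; adjusted p = 0.00097, edgeR). LOC_Os01g51610 fell from 0.441 ± 0.0316 to 0.145 ± 0.0441 CPM, just past the threshold (adjusted p = 0.049, edgeR), and this call was lost under 13 of 15 alternatives, in 1 of which the locus was not tested.

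LOC_Os10g32600 was set against each of the 5 activators within each library, a comparison chosen after its values were seen. Its log2 ratio to RID1, Ehd3, Ehd4, OsMADS50 and OsMADS51 was higher in osatg5-1 than in WT by 0.98, 0.78, 0.80, 0.63 and 0.73. In all 5 comparisons every osatg5-1 library lay above every WT library, as was already so for LOC_Os10g32600 alone. The CPM ranges of the genotypes were apart at 35.4% of all tested loci. These ratios restate the levels given above, share the values of LOC_Os10g32600 and are given as a description with no test.

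**Figure D4:**
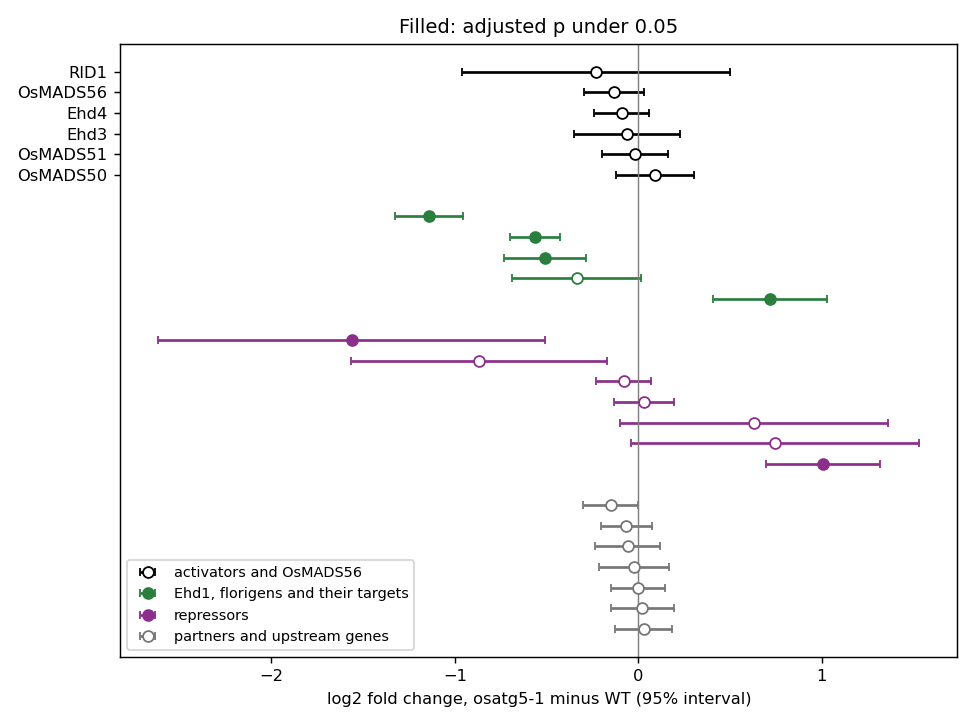
Log2 fold change of osatg5-1 over WT with its 95% interval (edgeR) for the 6 genes and for the tested loci of the 3 lists; filled points passed an adjusted p under 0.05. The intervals of the 6 genes all hold 0, and their log2 fold changes run from -0.23 to 0.09. Those of the list of Ehd1, the florigens and their targets run from -1.14 to 0.72. The repressors run from -1.56 to 1.01, and the partners and upstream genes from -0.15 to 0.03.

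The 6 genes varied over the 6 libraries in different ways. The highest Pearson correlation of log2 CPM within the set was 0.785, between RID1 and OsMADS56, and the lowest -0.707, between RID1 and OsMADS51. These values describe 6 libraries of 2 genotypes and carry no test. Over all tested loci, the single locus most like each gene reached 0.978 (for Ehd3) to 0.998 (for OsMADS56), and none of these loci was called. Each was picked for its likeness to a gene that was not called, so the lack of calls adds nothing. The locus picked for Ehd4 averaged only 0.311 CPM. Between 17 and 67 loci exceeded 0.95 for each gene, so at this number of libraries such a likeness singles out no locus.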

How the data were processed

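The authors deposited raw counts per locus for the 6 libraries and, per the file headers, FPKM values (scaled by gene length and depth) in 1 file per library. Per the labels' protocols the libraries came from a stranded mRNA kit; the submitters' processing notes name HISAT2 and build IRGSP-1.0. The counting tool, strand setting and treatment of multiply mapped reads were not given in any label or header, so overlapping or similar loci may share reads.

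The 6 genes and all lists were chosen with earlier results of these data known. Gene names come from the choice of the set; a RefSeq table of another assembly (ASM3414082v1) holds 5 of the 6 names, on the same chromosomes as their locus numbers, but 0 of the LOC_Os numbers. Named were the 6 genes, the targeted gene and loci of the lists, at most 2 that rose and 2 that fell (the lowest adjusted p among falls in each of 2 lists). Groups and replicate numbers come from the titles.

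Counts were filtered with filterByExpr, scaled by TMM and tested with edgeR 4.0.16 (R 4.3.3) for genotype, adjusting p-values by Benjamini-Hochberg over 23074 loci. Standard errors are the log2 fold change divided by the square root of F, and 95% intervals use the t distribution with the fit's degrees of freedom. For likeness, 0.5 was added to CPM before log2. Alternatives were RLE and library-size scaling, a replicate block, DESeq2 1.42.0, no filter, limma-voom from limma 3.58.1, a minimum of 1 CPM in 3 libraries, limma on log2(FPKM + 1) and log2(FPKM + 0.1), and leaving out each library. The tests were tried on simulated counts.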

Additional observations from a re-analysis of the deposited data

How the results depend on the processing

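None of the 6 genes was called under any of the 15 alternatives (0 in each), with adjusted p-values from 0.21 to 0.99. The log2 difference of OsMADS51 changed sign to 0.0181 under scaling by library size, to 0.0296 and 0.0308 with limma on FPKM with 1 and 0.1 added, and with 1 library left out it ran from -0.0638 to 0.0306, at 0.0212 without WT replicate 2; the cause was not tested. With 1 library left out the log2 difference ran from -0.161 to 0.0115 for Ehd3 (above 0 without osatg5-1 replicate 1), from -0.47 to -0.03 for RID1, from -0.12 to -0.05 for Ehd4, from 0.02 to 0.16 for OsMADS50 and from -0.18 to -0.06 for OsMADS56. The log2 ratio of OsMADS50 to OsMADS56 differed by 0.15 to 0.34 and that of RID1 to Ehd3 and Ehd4 by -0.445 to 0.061. The called loci of the 3 lists, 6 with the main settings, numbered 5 or 6 throughout, and all loci called 2567 to 4153 against 3793. With the replicate block 0 of the 6 genes and 6 listed loci were called. These were not the same 6 as with the main settings, since LOC_Os01g51610 was not among them. The ratios there differed by 0.22 and -0.20, which a mean over same-numbered pairs leaves unchanged by arithmetic. Exact sign-flip tests gave p = 0.5 and 0.75, where 3 pairs allow no less than 0.25. Libraries sharing a number were taken as unpaired: their deviations from the genotype means correlated at 0.054, -0.0192 and 0.13. Those of libraries with unlike numbers correlated at -0.162 to 0.109, so the highest value belonged to a same-numbered pair. RID1, at 24 to 39 counts per library, is the gene whose depth limits the comparison most.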

Other observations

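The loci directly before and after each of the 6 genes by locus number, 12 in all, were each tested; 2 rose and 1 fell (edgeR), beside 8.23% and 8.21% of all tested loci. Both rises flanked OsMADS56. The locus before it rose by 0.25 and the locus after it by 1.07 on the log2 scale (edgeR adjusted p = 0.036 and 9.86e-05), while OsMADS56 itself had a log2 difference of -0.13. The locus after RID1 fell by 0.36 (edgeR adjusted p = 0.0075). Whether reads are shared between these neighbours was not tested, and the files pair none of them with a name.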
